A study of Mus musculus with 2 samples.

Results

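The nuclear genes for mitochondrial ribosomal proteins were examined in macrophages left nontreated (NT) or stimulated with interleukin-4 (IL-4). A gene was a member if it was listed in at least 1 library and its symbol began with Mrpl or Mrps followed by a digit. This rule, which used no measured value, gave 78 members of 15623 listed genes. All 78 were listed in both libraries, all were protein-coding, and all passed the only filter used, a sum that did not round to 0 reads. Another 6 symbols of this form, all pseudogenes, were in neither table. The members comprised 49 Mrpl genes, named for the large subunit, and 29 Mrps genes, named for the small subunit.

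Both groups were macrophages of wild-type C57BL/6 mice, drawn into the peritoneal cavity by thioglycollate, enriched by adherence and starved in medium with little serum. The NT group received no cytokine and the IL-4 group received mouse IL-4 for 6 h. Each group was 1 library, and whether a library pooled several mice was not stated. The labels gave the cells as peritoneal macrophages but named bone marrow as the tissue. The NT library held 11035641 expected counts (reads assigned to genes) and the IL-4 library held 11250099. The 6 macrophage markers examined were all listed, with summed levels of 16967 CPM (counts divided by the library total, times a fixed factor) in NT and 17342 CPM in IL-4. Among 42 markers of 12 other cell types, 32 were listed and 10 were not. Of the neutrophil markers, S100a8 (35 counts in NT and 21 in IL-4) and Mmp8 (74 and 50) were listed, whereas Ly6g and S100a9 were not. Of the eosinophil markers, Prg2 (0 and 1) was listed, whereas Epx and Ccr3 were not. The 4 fibroblast markers summed to 153 CPM in NT and 120 CPM in IL-4, and none of the 11 other lists exceeded 10.3 CPM in NT or 12.4 CPM in IL-4, the latter from Adipoq alone (0 counts in NT and 139 in IL-4). The part of these cells in the values below was not tested.

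Mitochondria translate the few messenger RNAs of their own genome, which encode core subunits of the respiratory chain and of ATP synthase, on a dedicated ribosome. Its RNAs come from mitochondrial DNA, whereas each of its proteins is encoded in the nucleus, made in the cytosol and imported. Many of the proteins descend from bacterial ribosomal proteins, and the others are found only in mitochondria. Alternative polarization of macrophages by IL-4 is known for a reliance on oxidative metabolism. By the standard nomenclature, 46 members were homologues of bacterial proteins and 31 were specific to mitochondria. The remaining member, Mrps36, carries a ribosomal name but belongs to the 2-oxoglutarate dehydrogenase complex. The symbols of Mrps30 and Mrps18a are also historical, since both proteins lie in the large subunit.

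The members were expressed at moderate levels in both libraries. On the FPKM scale, which divides by transcript length and depth, the median level over the 78 members was 19.2 in NT and 23.2 in IL-4. Levels ran from 4.50 to 104 FPKM in NT and from 4.92 to 116 FPKM in IL-4, and 55 members lay between 10 and 60 FPKM in both. Although the proteins are built into 1 particle, the highest FPKM thus exceeded the lowest 23.1-fold in NT and 23.5-fold in IL-4. The spread of the counts themselves was narrower, 8.99-fold in NT and 8.33-fold in IL-4. Across the 78 members, FPKM in NT ran against transcript length (Spearman's rho = -0.68), whereas the count in NT had little relation to it (rho = 0.107). FPKM is itself a count divided by length, and both correlations are descriptions from 1 library.

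Mrps21, a small-subunit protein of bacterial descent, had the highest level, at 104 FPKM in NT and 116 FPKM in IL-4. Mrpl20, which binds the large-subunit RNA, followed at 91.6 FPKM in NT and 109.7 FPKM in IL-4. Mrps15, another RNA-binding protein of the small subunit, stood at 51.1 FPKM in NT and 80.4 FPKM in IL-4. The mitochondria-specific Mrpl42 had 58.0 FPKM in NT and 72.8 FPKM in IL-4, and Mrpl52 went the other way, with 67.8 and 57.9 FPKM. Mrps18a completed the 6 most abundant members, with 57.8 FPKM in NT and 64.2 FPKM in IL-4. Most of these transcripts were short, and the weighted lengths were 423 bases for Mrps21, 665 for Mrpl20 and 412 for Mrpl52. At the other end stood Mrpl57, with 4.50 FPKM in NT and 5.00 in IL-4, and Mrpl19, with 4.69 and 4.92 FPKM. Mrpl17, Mrpl35, Mrpl1 and Mrps25 were the other members of the lowest 6, at 5.20 to 7.93 FPKM in NT and 5.92 to 7.68 FPKM in IL-4. Several of these had long annotated transcripts, 5016 bases for Mrpl19, 6076 for Mrps25 and 6712 for Mrpl17. Mrps25 had 538 counts in NT and Mrps15 had 530, so nearly the same number of reads gave 7.93 FPKM for Mrps25 and 51.1 FPKM for Mrps15. The order of the members was nearly the same in both libraries (rho = 0.98 over the 78).

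**Figure D1:**
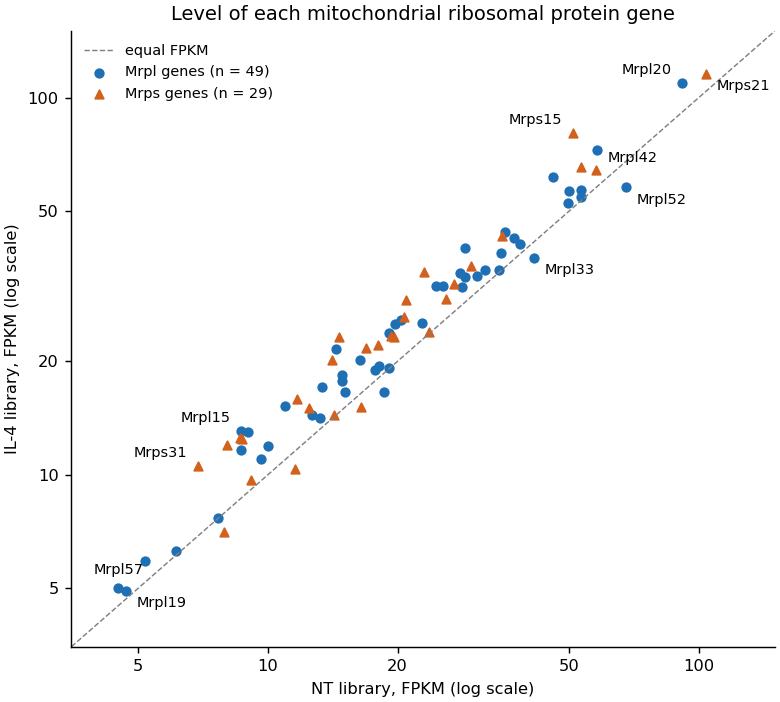
Level of each member in the NT library (x axis) and in the IL-4 library (y axis), both in FPKM on a log scale, with Mrpl genes as circles, Mrps genes as triangles and a dashed line at equal FPKM. The points follow the line over the whole range, and 72 of 78 lie above it.

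The question of the comparison was which genes differ after IL-4, and most members had a modestly higher share of the reads in the IL-4 library. The members together took 21856 reads in NT and 26065 in IL-4, which is 1981 CPM (0.198% of the library) and 2317 CPM (0.232%). For this sum, scaled to library totals, the log2 ratio of the IL-4 library to the NT library was 0.23 (95% interval 0.20 to 0.25). Every interval given here came from the exact Clopper-Pearson method applied to the share of a gene's reads that fell in the IL-4 library. Such intervals cover counting error only, since PCR reads that carry no molecular identifiers are not independent, and with 1 library per group they compare libraries, not conditions. In bulk RNA, fewer cells of a type and less RNA per cell cannot be told apart.

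Of the 78 members, 71 had a log2 ratio over 0, where 45.3% of the 15593 genes tested and 50.2% of the 8704 genes with at least 100 counts in the library with more did. All 78 members reached 100 counts in that library. The median log2 ratio was 0.24 over the members, -0.03 over all genes tested and 0.0012 over the genes with at least 100 counts. The counting interval lay above 0 for 36 members, against 17.9% of all genes tested and 28.1% of those with at least 100 counts. It lay below 0 for 0 members (20.4% of all genes tested) and spanned 0 for 42. The shift was small for each gene. The threshold for a call was a log2 ratio of 0.75 or more in either direction together with an interval that excluded 0, and 0 members were called higher (4.07% of all genes tested) or lower (6.28%). At a fold over 1.5 in place of this ratio, 4 members were called higher (5.52% of all genes tested) and 0 lower (8.84%). Of the single genes tested, 26.4% had a ratio at or above the member median. Over the genes with at least 100 counts, the upper quartile of the ratio was 0.22. Both values describe single genes, so they do not show how unusual a median over 78 genes is.

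The largest ratios were those of 8 members, of which 6 carry the Mrps name. Mrpl15 (chr1:4773198-4785750), a large-subunit protein of bacterial descent, had 248 counts in NT and 401 in IL-4. Its log2 ratio was 0.66 (0.43 to 0.90). Mrps28 (chr3:8802146-8923857), of the small subunit, had 115 counts in NT and 186 in IL-4, a log2 ratio of 0.66 (0.32 to 1.01). These values were the highest of the 78, and they could not be separated from the next ones by their intervals. Mrps15 (chr4:126046928-126055536) rested on the most reads, 530 in NT and 850 in IL-4, and had the narrowest interval of the 8 (log2 ratio 0.65, 0.50 to 0.81). Mrps31 (chr8:22410449-22429669), specific to mitochondria, had 116 counts in NT and 181 in IL-4, a log2 ratio of 0.61 (0.27 to 0.96). Mrps18b (chr17:35910380-35916440), one of 3 related proteins of the S18 type, had 269 counts in NT and 411 in IL-4 (log2 ratio 0.58, 0.36 to 0.81). In all 8 the IL-4 library had the higher count. Mrpl22, which lines the exit tunnel for the growing peptide, had 116 counts in NT and 177 in IL-4 (log2 ratio 0.58, 0.24 to 0.93). Mrps14, of the head of the small subunit, had 175 counts in NT and 266 in IL-4 (log2 ratio 0.57, 0.30 to 0.86). Mrps35, specific to mitochondria, had 100 counts in NT and 148 in IL-4 (log2 ratio 0.54, 0.16 to 0.92).

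The 8 lowest ratios all had intervals that spanned 0. Mrpl52 (chr14:54426909-54429750), specific to mitochondria and among the most abundant members, had 286 counts in NT and 249 in IL-4, a log2 ratio of -0.23 (-0.48 to 0.02). Mrps25 had 538 counts in NT and 488 in IL-4 (log2 ratio -0.17, -0.35 to 0.01). Mrpl37 had 305 counts in NT and 277 in IL-4 (log2 ratio -0.17, -0.41 to 0.07). Mrpl37 and Mrps30 are related to each other in sequence and both belong to the large subunit. Mrps30 had 202 counts in NT and 185 in IL-4 (log2 ratio -0.15, -0.45 to 0.14). Mrpl33 had 208 counts in NT and 193 in IL-4, a log2 ratio of -0.14 (-0.43 to 0.15). Mrpl1, of the mobile stalk where deacylated tRNA leaves the ribosome, had 197 counts in NT and 184 in IL-4, a log2 ratio of -0.12 (-0.42 to 0.17). These 6 members and Mrps6 were the 7 with a ratio under 0. Mrps6 had 140 counts in NT and 132 in IL-4 (log2 ratio -0.12, -0.47 to 0.24), and part of its reads may belong to Slc5a3, which overlaps it on the same strand. Mrpl10 closed the 8 with 353 counts in NT and 362 in IL-4 (log2 ratio 0.01, -0.21 to 0.22).

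**Figure D2:**
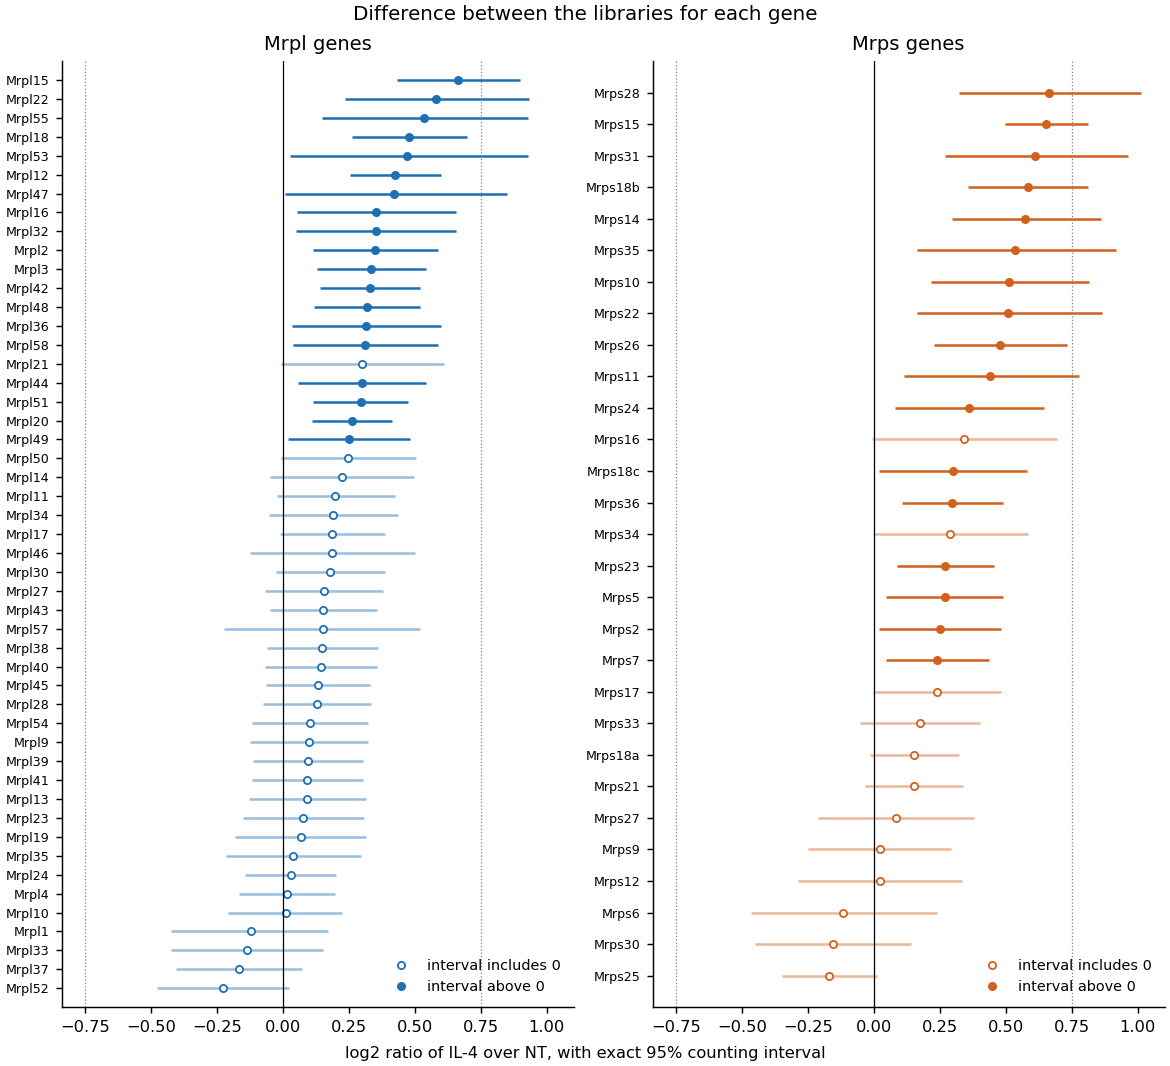
Log2 ratio, IL-4 over NT (x axis), of each Mrpl gene (left panel) and Mrps gene (right panel) in order of the ratio, with exact 95% counting intervals as bars, a solid line at 0 and dotted lines at the call threshold of 0.75 in either direction. The intervals of 36 members lie above 0 (filled points), those of 42 include it (open points) and no point passes the threshold.

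Members with known roles in the working ribosome had unequal ratios. The stalk that recruits translation factors holds Mrpl12 on a base of Mrpl10, with Mrpl11 beside it. Mrpl12 had 478 counts in NT and 655 in IL-4 (log2 ratio 0.43, 0.25 to 0.60), and its interval did not overlap that of Mrpl10 as measured. With the trend of the ratio over transcript length subtracted, the intervals of Mrpl12 (0.05 to 0.39) and Mrpl10 (-0.32 to 0.11) overlapped. Mrpl11 had 307 counts in NT and 360 in IL-4 (log2 ratio 0.20, -0.02 to 0.43). The 3 proteins of the S18 type also differed in their values. Mrps18b was given above, Mrps18c had 192 counts in NT and 241 in IL-4 (log2 ratio 0.30, 0.02 to 0.58), and Mrps18a had 537 and 609 (log2 ratio 0.15, -0.02 to 0.32). The intervals of Mrps18b and Mrps18a did not overlap, with that of Mrps18c across both. Mrpl58, a peptidyl-tRNA hydrolase that frees stalled ribosomes, had 200 counts in NT and 253 in IL-4 (log2 ratio 0.31, 0.04 to 0.59). Mrpl57 had 116 counts in NT and 131 in IL-4 (log2 ratio 0.15, -0.22 to 0.52).

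The ratios varied among members by more than counting error gives for a typical member. Their standard deviation was 0.21 on the log2 scale, whereas the median counting error of a member was 0.122. The ratio ran weakly against the NT count (rho = -0.37 over 78 members), which enters the ratio itself, and had no clear relation to mean FPKM (rho = -0.0468). The Mrps genes had a median log2 ratio of 0.29, with 26 of 29 over 0 and 17 intervals above 0. The Mrpl genes had a median of 0.19, with 45 of 49 over 0 and 19 intervals above 0. The summed reads of the Mrps genes were 7457 in NT and 9248 in IL-4 (log2 ratio 0.28, 0.24 to 0.33). Those of the Mrpl genes were 14399.5 and 16816.5, a log2 ratio of 0.20 (0.16 to 0.23). The intervals of these sums did not overlap with Mrps15, but without it the ratio of the Mrps sum was 0.25 (0.20 to 0.30) and they did. With Mrps30 and Mrps18a moved to the large subunit and Mrps36 left out, the medians were 0.29 over the 26 small-subunit members and 0.19 over the 51 large-subunit members. Homologues of bacterial proteins had a median of 0.25, with 22 of 46 intervals above 0, and the mitochondria-specific members had one of 0.19, with 13 of 31. No test over replicates was possible for either division.

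Transcript length moved with the ratio across the whole transcriptome, and the members were short. The log2 ratio ran against length (rho = -0.45) over the 8463 genes that had at least 200 reads. The median length was 1058 bases for the members and 2707 for all genes tested, and 66 of 78 members were under 2000 bases, as were 33.0% of the genes tested. The length trend of a gene, taken as the median ratio of the 200 such genes nearest to it in length, had a median of 0.17 over the members. Members and genes of the other lists below were not left out of these 200. Subtracting the trend may therefore also remove part of their own shift, and how much was not tested. With this trend subtracted, the median of the members was 0.10, that of all genes tested was -0.04, and 53 members were over 0, against 45.6% of all genes tested and 49.7% of those with at least 100 counts. The interval then lay above 0 for 13 members, against 16.1% of all genes tested and 25% of those with at least 100 counts, and below 0 for 4 (18.2% of all genes tested). The share of members with an interval above 0 was then below that of genes with at least 100 counts. Those above were Mrpl15, Mrps28, Mrps15, Mrps31, Mrps18b, Mrpl22, Mrps14, Mrps10, Mrpl18, Mrps26, Mrpl12, Mrpl17 and Mrpl19. Those below were Mrpl52, Mrpl33, Mrpl37 and Mrpl24. Mrpl15 kept a log2 ratio of 0.64 (0.41 to 0.88), and Mrps15 had 0.44 (0.28 to 0.60). The long Mrpl17 had 390 counts in NT and 453 in IL-4, a log2 ratio of 0.19 (-0.01 to 0.39) as measured and of 0.53 (0.33 to 0.73) with the trend subtracted. Among members, the median ratio as measured was 0.30 for the 35 under 1000 bases, 0.24 for the 31 of 1000 to 2000 bases and 0.14 for the 12 longer ones.

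**Figure D3:**
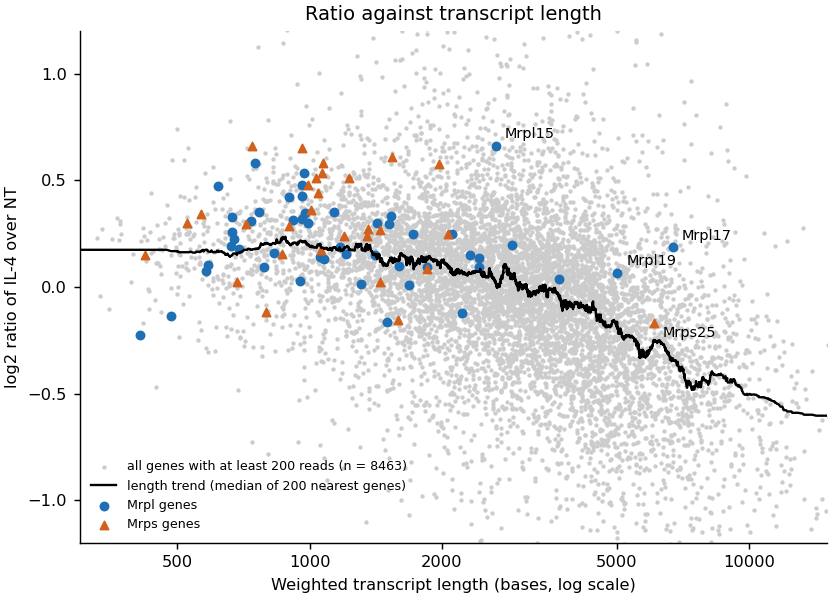
Log2 ratio, IL-4 over NT (y axis), against weighted transcript length in bases (x axis, log scale), with all genes of at least 200 reads in grey (a few lie beyond the axes), their length trend as a line, Mrpl genes as circles and Mrps genes as triangles. The line falls beyond about 1000 bases, and the members lie mostly at the short end, 66 of 78 under 2000 bases.

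The weighted length, which shifts when the estimated mix of transcripts shifts, was identical in both libraries for 68 members. The tables listed 1 transcript for 68 members and several for 10. A difference of over 1% was found for 4 members (8.32% of genes listed in both tables) and one of over 5% for 2 (2.5%). The weighted length of Mrpl15, which has 3 annotated transcripts, was 2584 bases in NT and 2718 in IL-4. That of Mrpl1 was 2318 bases in NT and 2131 in IL-4. Mrpl1 thus had fewer counts in IL-4 but a level of 7.67 FPKM in NT and 7.68 in IL-4. In all, 61 members had whole counts in both libraries and 17 did not. Mrpl51, Mrpl11 and Mrpl17 were among the 17, although only 1 transcript was listed for each. Mrps23, with 6 transcripts, and Mrpl55, with 5, had whole counts. There were 20 members that overlapped another listed gene, 3 of them on the same strand. Those 3 were Mrps6, Mrpl19 with Gcfc2, and Mrps23 with Cuedc1. Whether strand was used in counting was not stated, so reads of overlapping genes may be exchanged.

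Among other gene lists, the nuclear subunits of the respiratory chain and ATP synthase had the median nearest to that of the members. These 79 nuclear subunits had a median log2 ratio of 0.25, with 73 over 0 (45.3% of all genes tested) and 54 intervals above 0 (17.9%). With the length trend subtracted, their median was 0.09. The 76 cytosolic ribosomal proteins, which form the ribosomes of the cytosol, had a median of 0.17, with 75 over 0, and it was -0.01 with the trend subtracted. Their standard deviation of 0.07 was smaller than the 0.21 of the members, at far higher read numbers. The 17 mitochondrial aminoacyl-tRNA synthetases had a median of 0.10, with 3 intervals above 0 (17.9% of all genes tested). Their transcripts were longer, with a median of 3146 bases. With the trend subtracted, their median was 0.08, with 4 intervals above 0 (16.1% of all genes tested). None of the 37 genes of mitochondrial DNA was matched in the tables, so the ribosomal RNAs and messenger RNAs on the other side of this machine were not analysed here.

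**Figure D4:**
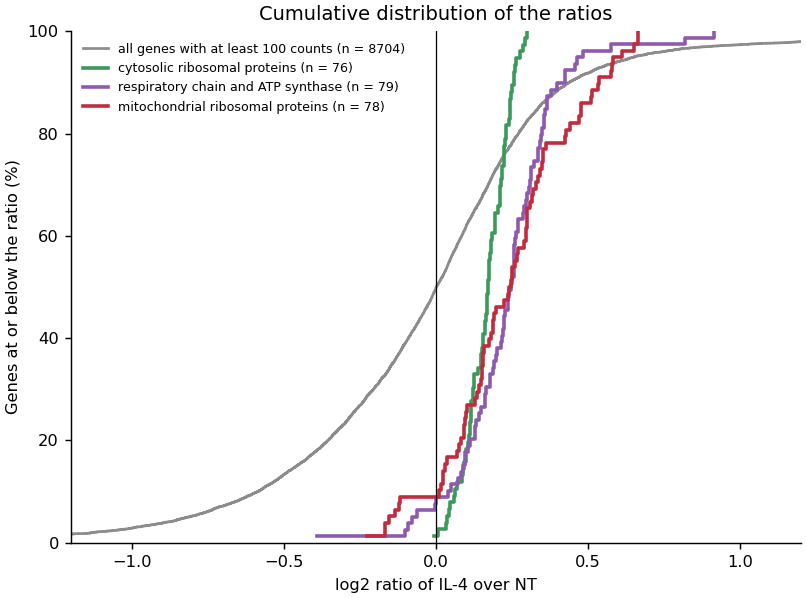
Cumulative share of genes (y axis, percent) at or below each log2 ratio, IL-4 over NT (x axis, genes beyond the axis not drawn), for the members, the respiratory chain and ATP synthase, the cytosolic ribosomal proteins and all 8704 genes with at least 100 counts in the library with more. The curves of the 3 lists stand to the right of that of all genes, which has a median of 0.0012, and the curve of the members is wider than that of the cytosolic ribosomal proteins.

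The mitochondrial ribosome holds further proteins without an Mrp symbol, and 5 were examined. Gadd45gip1 had 707 counts in NT and 839 in IL-4 (log2 ratio 0.22, 0.07 to 0.37), and Aurkaip1 had 546 and 683 (log2 ratio 0.29, 0.13 to 0.46). Chchd1 had 172 counts in NT and 198 in IL-4 (log2 ratio 0.17, -0.13 to 0.48). Ptcd3 had 270 and 299 (log2 ratio 0.12, -0.12 to 0.36). Dap3, the GTP-binding protein of the small subunit, had 337 and 342 (log2 ratio -0.01, -0.23 to 0.21). The interval thus lay above 0 for 2 of the 5, against 17.9% of all genes tested and 28.1% of those with at least 100 counts. These 2 were the genes with the most reads. With the length trend subtracted, the interval lay above 0 for 0 of the 5 (16.1% of all genes tested).

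Factors that assemble the particle or modify its RNA gave a mixed picture. Of 24 such genes, 16 had a ratio over 0 (45.3% of all genes tested), and the median was 0.17. The interval lay above 0 for 6, against 17.9% of all genes tested and 28.1% of those with at least 100 counts. It lay below 0 for 1 (20.4% of all genes tested). With the length trend subtracted, 4 intervals lay above 0 (16.1% of all genes tested) and 2 below (18.2%), those of Mterf4 and Malsu1. Of the 24, 1 was called higher (4.07% of all genes tested) and 0 lower (6.28%). The called gene was the RNA methyltransferase gene Mettl15, on few reads, 16 in NT and 31 in IL-4 (log2 ratio 0.91, 0.01 to 1.90). Its interval spanned 0 with the length trend subtracted (0.78, -0.12 to 1.77). The most abundant by FPKM was Mpv17l2, with 33.8 FPKM in NT and 43.8 in IL-4, on 349 and 461 counts (log2 ratio 0.37, 0.17 to 0.58). Rbfa, a small-subunit maturation factor, followed with 23.3 and 30.6 FPKM, on 346 and 465 counts (log2 ratio 0.40, 0.19 to 0.60). The largest ratios at 100 counts or more were those of Nsun4, an rRNA methyltransferase, with 95 and 142 counts (log2 ratio 0.55, 0.17 to 0.94), and of the GTPase Gtpbp10, with 97 and 136 (log2 ratio 0.46, 0.07 to 0.85). The helicase gene Dhx30 was the one with an interval below 0 as measured, with 500 counts in NT and 435 in IL-4 (log2 ratio -0.23, -0.42 to -0.04). With the length trend subtracted, the intervals of Dhx30 (-0.33 to 0.05) and Mpv17l2 (-0.05 to 0.36) spanned 0.

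Of 12 translation factors, 10 had a ratio over 0 (45.3% of all genes tested), and the median was 0.22. The interval lay above 0 for 4 (17.9% of all genes tested, 28.1% of those with at least 100 counts). The elongation factor genes Tufm and Gfm1 were the most abundant by FPKM. Tufm had 811 counts in NT and 984 in IL-4 (log2 ratio 0.25, 0.12 to 0.39), and Gfm1 had 581 and 738 (log2 ratio 0.32, 0.16 to 0.48). Tsfm, the exchange factor of the Tufm protein, had 83 and 126 counts (log2 ratio 0.57, 0.16 to 0.99). With the length trend subtracted, 3 of the 12 intervals lay above 0 (16.1% of all genes tested), those of Gfm1, Mtif3 and Mtrf1l. The intervals of Tufm and Tsfm then spanned 0. Another 9 genes, for the replication and transcription of mitochondrial DNA and for its messenger RNAs, had a median of 0.02. The interval lay above 0 for 0 of them (17.9% of all genes tested) and below 0 for 1 (20.4%). In this list Polg, the catalytic subunit of the mitochondrial DNA polymerase, had the interval below 0, with 511 counts in NT and 355 in IL-4 (log2 ratio -0.55, -0.75 to -0.36). The protein pair of Slirp and Lrpprc stabilizes mitochondrial messenger RNAs, and their genes were the most abundant by FPKM. Slirp had 23.9 FPKM in NT and 27.9 in IL-4, on 105 and 125 counts (log2 ratio 0.22, -0.16 to 0.61). Lrpprc had 14.6 and 15.8 FPKM, on 756 and 831 counts (log2 ratio 0.11, -0.04 to 0.25). Tfam, which packages mitochondrial DNA, had 171 and 212 counts (log2 ratio 0.28, -0.02 to 0.58). With the length trend subtracted, the interval lay above 0 for 2 of the 9 (16.1% of all genes tested) and below 0 for 1 (18.2%). The 2 above were Tfam (0.37, 0.08 to 0.67) and Lrpprc (0.27, 0.13 to 0.42), and the 1 below was again Polg.

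Among 9 regulators of nuclear genes for mitochondria, 2 were called higher (4.07% of all genes tested) and 1 lower (6.28%). Myc, a transcription factor known to act on ribosome synthesis, rose from 102 counts in NT to 313 in IL-4 (log2 ratio 1.59, 1.26 to 1.93). The coactivator Ppargc1b rose from 81 to 158 counts (log2 ratio 0.93, 0.54 to 1.34). Its relative Ppargc1a was called lower on 25 counts in NT and 12.3 in IL-4 (log2 ratio -1.03, -2.21 to -0.04), and with the length trend subtracted its interval spanned 0. The others were smaller in size. Yy1 had 599 and 467 counts (log2 ratio -0.39, -0.56 to -0.21), and Gabpb1, a partner of the ETS factor Gabpa, had 143 and 198 (log2 ratio 0.44, 0.12 to 0.76). The nuclear receptor gene Esrra had 379 and 446 counts (log2 ratio 0.21, 0.01 to 0.41). Gabpa itself had 561 and 521 counts (log2 ratio -0.13, -0.31 to 0.04). Pprc1 had 548 and 491 (log2 ratio -0.19, -0.36 to -0.008), and Nrf1 had 229 and 266 (log2 ratio 0.19, -0.07 to 0.45). With the length trend subtracted, the intervals of Esrra and Pprc1 spanned 0. Among the 9 regulators as measured, the interval lay above 0 for 4 (17.9% of all genes tested) and below 0 for 3 (20.4%).

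**Figure D5:**
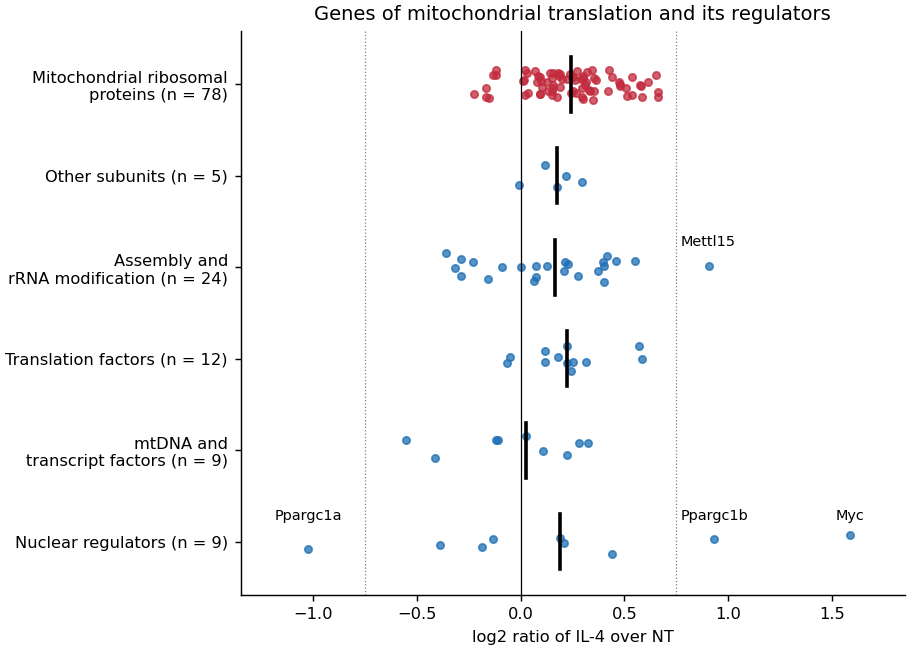
Log2 ratio, IL-4 over NT (x axis), for each gene of the lists around the mitochondrial ribosome (y axis, 1 row of points per list, spread up and down only for sight), with bars at the medians, dotted lines at the call threshold of 0.75 in either direction and called genes named. Myc and Ppargc1b stand to the right and Ppargc1a to the left, while the members lie between -0.23 and 0.66.

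Promoters of nuclear genes for mitochondria are known for sites of ETS factors such as Gabpa, of Nrf1 and of Yy1. Because most members shifted the same way, their promoters were searched for these motifs, for the E-box bound by Myc and for the palindrome bound by STAT factors such as Stat6. RefSeq windows from 250 bases before to 50 bases after the start (GRCm38.p6) were matched for 69 of 78 members and for 12171 listed genes, and both strands were searched. No matches of different motifs overlapped in the members. The ETS motif CCGGAAG was in the windows of 26 members, or 37.7% of the 69, against 17.8% of listed genes and 8.86% of all windows. The Nrf1 half-site TGCGCA was found for 21 members (30.4%, against 14.4% of listed genes and 7.76% of all windows). The Yy1 motif AAGATGGC was found for 12 members (17.4%, against 4.77% of listed genes and 2.75% of all windows). At least 1 of the 3 motifs was present for 44 members (63.8%, against 32.0% of listed genes). The E-box CACGTG was in 5 members (7.25%, against 10.95% of listed genes and 7.15% of all windows). The STAT motif, TTC and GAA set apart by any 4 bases, was in 3 members (4.35%, against 6.67% of listed genes and 6.95% of all windows). All 78 members reached 100 counts in the library with more, whereas the listed genes include genes with fewer. Shares among genes of like level were not computed.

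The motifs did not separate members with high ratios from those with low ones. The median log2 ratio was 0.28 with the ETS motif and 0.24 without it. For the Nrf1 half-site it was 0.24 with and 0.25 without, and for the Yy1 motif it was 0.25 with and 0.25 without. With the E-box it was 0.30, against 0.24 without, and with the STAT motif it was 0.30, against 0.24 without, over 5 and 3 members only. Stretches of 30 bases around the match are shown 5′ to 3′ on the strand of the gene. Only the motif named on each line, or its reverse complement, is in capitals. In lower case, the Mrps18b stretch also holds the Nrf1 half-site, and the Mrps18c stretch the reverse complement of the ETS motif. The first 4 hold the ETS motif and belong to the members with the highest ratios among those that have it, the next 3 hold the E-box by the same choice, and the last 3 are all the members with the STAT motif.
Mrps18b, ETS (chr17:35916391-35916420, minus strand): tgtcccgagcatgcgcagtcgctCTTCCGG
Mrpl22, ETS (chr11:58171600-58171629, plus strand): cttttccggtcCCGGAAGccggcctcggac
Mrps22, ETS (chr9:98601672-98601701, minus strand): aacctctcgagCCGGAAGttgctctatcga
Mrpl18, ETS (chr17:12916312-12916341, minus strand): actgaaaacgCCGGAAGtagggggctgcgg
Mrpl2, E-box (chr17:46646078-46646107, plus strand): actgccgcccgtCACGTGacccgagcaacc
Mrpl36, E-box (chr13:73330954-73330983, plus strand): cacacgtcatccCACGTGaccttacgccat
Mrps18c, E-box (chr5:100798584-100798613, plus strand): gcagccccgggtCACGTGacttccggcccg
Mrpl53, STAT (chr6:83108920-83108949, plus strand): gaaggacgttTTCCTGCGAAggggattttg
Mrpl44, STAT (chr1:79775816-79775845, plus strand): agaaatgtttTTCTTGTGAAaatttaagtg
Mrps17, STAT (chr5:129715255-129715284, plus strand): gtccaatctaTTCCTGGGAAatcaaaagag
A match of letters is no evidence of binding, and binding was not measured here.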

How the data were processed

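RNA sequencing of 2 libraries (NT and IL-4, 1 each) was analysed, with groups as the sample titles give them. The authors aligned reads with Bowtie to GRCm38 (mm10) and quantified genes with RSEM. The versions were not given in the sources used here. The deposited expected counts are RSEM estimates of the reads of each gene, not scaled for depth, and whole values (within 0.005) made up 77.6% of NT and 77.8% of IL-4. The authors' FPKM values are scaled for length and depth. The deposited length column is the transcript length of a gene weighted by abundance. Genes absent from a table were set to 0. Of 15623 gene numbers, 15587 were matched to a symbol through RefSeq (GRCm38.p6), which gave the coordinates.

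The ratio is the log2 of IL-4 over NT, from counts scaled to totals with 0.5 added in each library. Intervals used counts rounded to whole numbers, and 15593 genes were tested, 30 that rounded to 0 in both libraries being left out. With 1 library per group no test over replicates exists and no p-value is given, so the edgeR test could not be fitted and edgeR and DESeq2 were used only for scaling. The smallest abundance shown is 3 counts (0.272 CPM in NT, 0.267 CPM in IL-4). The call of at least 0.75 follows the thresholds of the study, without its p-value. Members and lists were chosen with earlier results of these data known. Members named are the 6 highest and 6 lowest by FPKM, the 8 highest and 8 lowest by ratio, those whose length differed by over 5%, and 9 of known role. Of each pathway list, the other subunits, called genes, and the 2 most abundant and 2 largest changes were to be named, and a few others were chosen after their values were seen. The procedure was tested on simulated data. Alternatives were TMM scaling, median-of-ratios scaling, 2 counts added, FPKM with 0.1 or 1 added, a total without the 100 most abundant genes, the length trend, a filter of 50 reads, other call thresholds, whole counts alone, protein-coding members alone, subunits by structure, and, added after seeing the data, the omission of Mrps36 or Mrps15. Computations used edgeR 4.0.16 and DESeq2 1.42.0 in R 4.3.3, and scipy 1.17.1, numpy 2.4.6, matplotlib 3.10.9 and pandas 2.3.3 in Python 3.11.15.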

Additional observations from a re-analysis of the deposited data

How the results depend on the processing

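No paired analysis was possible because 1 library stood for each group, and none could be left out. The direction of the member median, of both subunits and of both classes was the same under the alternatives run. The length trend moved them most. With it subtracted, the median log2 ratio was 0.10 over the members, 0.088 for the large and 0.14 for the small subunit, and 0.12 for bacterial homologues and 0.080 for mitochondria-specific members, with 13 intervals above 0 and 4 below. TMM scaling gave 0.28 over the members, 0.22 for the large subunit and 0.28 for bacterial homologues, and moved the median of all genes from -0.03 to 0.01. Median-of-ratios scaling gave 0.27 over the members. Members with whole counts alone gave 0.27, with 0.26 for the large subunit, 0.30 for bacterial homologues and 0.25 for mitochondria-specific members. A total without the 100 most abundant genes put 1 interval below 0, that of Mrps25 (-0.37 to -0.01). A fold over 1.5 called 4 members (Mrpl15, Mrps15, Mrps28 and Mrps31). Of 28 named members, 5 had a ratio of the other sign under some alternative. These were Mrps18a, Mrps21, Mrps25 and Mrpl10 with the length trend, Mrpl10 also without the 100 most abundant genes, and Mrpl1 on the FPKM scale. The intervals of all 5 spanned 0 with scaling to totals, and under TMM scaling those of Mrps18a (0.02 to 0.36) and Mrps21 (0.0035 to 0.37) lay above 0. Depth limits single members, whose median interval width was 0.48, more than their sum.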

Other observations

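Nuclear genes for mitochondrial proteins are known to share promoter regions at times with a neighbour read from the other strand. Among the 69 members with a RefSeq window, 26 (37.7%) had a divergent start within 1000 bases, against 18.4% of the 12171 listed genes with a window. The share among genes of like level was not computed here either. As a set, the partners did not follow the members as measured. The lengths of the partners were not taken into account, so the part of the length trend in this difference was not tested. Over the 19 partners with at least 100 counts in the library with more, the median log2 ratio was -0.08. Of these 19, 9 were over 0, against 50.2% of all genes with at least 100 counts. Mrps11 and Mrpl46, which are members themselves, were counted among the 19 and among the 9. The median over the members with a divergent start was 0.25, and that over the members without one was 0.24. Mrps11 and Mrpl46 are partners of each other, with starts 42 bases apart. Mrps11 had 132 counts in NT and 183 in IL-4 (log2 ratio 0.44, 0.11 to 0.78), and Mrpl46 had 162 and 188 (log2 ratio 0.19, -0.12 to 0.50). Mrpl47 lies beside Ndufb5, a subunit of respiratory complex I, with log2 ratios of 0.42 and 0.29. Mrps12, of the decoding centre, lies beside the seryl-tRNA synthetase gene Sars2, with 0.02 and 0.20. Mrpl43 lies beside Twnk, the mitochondrial DNA helicase, with 0.15 and -0.12. These pairs were chosen after their values were seen, and counting without strand could exchange reads where partners overlap.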
